A study of Homo sapiens with 12 samples.

Results

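The 6 mature miRNAs described here are both arms of 3 hairpins, hsa-miR-32-5p and hsa-miR-32-3p, hsa-miR-374a-5p and hsa-miR-374a-3p, and hsa-miR-374b-5p and hsa-miR-374b-3p, written below without the species prefix. They were picked by name, with earlier results of these libraries in view, because reads of some of their arms differed between cells given 4-thiouridine (4SU) and cells without it. They are 6 of 2652 miRNAs in the tables, and all 6 lie among the 143 of the Initial miRNA Dataset, the study's set of curated miRNAs above 100 CPM (reads scaled to the library's total of miRNA reads) in every library. The working description of these arms as lowered by 4SU comes from these same libraries, so their reads cannot test it. In CPM it describes miR-32-3p and miR-374b-3p, whereas miR-374a-3p overlapped between conditions. For miR-32-3p in DMSO the separation from Control depended on how reads were scaled, as given below. The 3 5p arms had higher mean CPM with 4SU than without it.

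The libraries came from Huh7, a human hepatocellular carcinoma cell line, in 4 independent experiments with 3 conditions each. Control cells received the solvent DMSO and no 4SU, DMSO cells received DMSO and 500 µM 4SU, and PlaB cells received pladienolide B and 500 µM 4SU, each for 4 h. PlaB inhibits SF3B1, a component of the U2 snRNP needed for splicing. The sample labels give 500 µM for PlaB, the same value as for 4SU. The methods of the study name 1 µM PlaB for 4 h unless stated otherwise, and their SLAMseq section gives no other PlaB dose. The label value is therefore in doubt. In SLAMseq, RNA of all 3 conditions, Control included, is treated with iodoacetamide, after which an incorporated 4SU is read as C in place of T (a T>C conversion), and Control libraries give the background of such conversions. Library totals ranged from 1667668 to 2393680 miRNA reads in Control, from 1968612 to 3880241 in DMSO and from 1522210 to 1979696 in PlaB. DMSO replicates 1 and 2 combine the reads of several sequencing runs, including re-prepared libraries, and no other library does. The liver miRNA miR-122-5p was at 55353 to 105331 CPM in the 12 libraries. Summed markers of blood cells reached at most 4.04 CPM, those of muscle at most 10.2 CPM and those of neurons at most 54.9 CPM.

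A miRNA hairpin is cut from its primary transcript by the Microprocessor complex and then by Dicer, which leaves a duplex of a 5p and a 3p strand. Usually 1 strand is kept in Argonaute and the other is lost sooner, so the ratio of the arms in a cell reflects both strand choice and strand stability. The study names sequencing bias as a known difficulty with miRNAs, so a ratio of reads can also depend on how each arm is captured and sequenced. Target choice depends mainly on the seed, bases 2 to 8 of the mature strand. MIR32 lies at chr9:109046229-109046298 on the minus strand, within an intron of the protein-coding gene TMEM245 (GRCh38, GENCODE annotation). MIR374A (chrX:74287286-74287357) and MIR374B (chrX:74218547-74218618), also on the minus strand, lie within FTX, a long non-coding RNA gene of the X-inactivation centre. MIR374A is intronic in FTX, with no exon overlapping it. MIR374B is spanned by 49 annotated FTX transcripts, and 3 exon entries, counted over all transcripts, overlap it. Thus 1 hairpin has a protein-coding host and the other 2 share a non-coding host.

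RefSeq (GRCh38.p14) held mature sequences of 5 of the 6 arms, and miR-374a-5p had none there. They are shown 5′ to 3′, with the seed in capitals, because the arms of a hairpin differ in the T positions that can be converted and because the miR-374 3p arms are close relatives.
miR-32-5p: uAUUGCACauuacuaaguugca
miR-32-3p: cAAUUUAGugugugugauauuu
miR-374a-3p: cUUAUCAGauuguauuguaauu
miR-374b-5p: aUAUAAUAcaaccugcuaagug
miR-374b-3p: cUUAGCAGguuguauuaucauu
All 5 are 22 bases long. The 3p arms are rich in U, with 11 U in miR-32-3p, 11 in miR-374a-3p and 10 in miR-374b-3p, and each ends in at least 2 U. The 5p arms hold fewer, with 8 in miR-32-5p and 6 in miR-374b-5p, and the tables give 7 T positions for miR-374a-5p. The median of the dataset was 6. The 3p arms of miR-374a and miR-374b differ at 4 of 22 bases, U5G, A9G, G17A and A19C, where the first letter is the base of miR-374a-3p and positions count from its 5′ end. The first of these changes lies within the seed. Multi-mapping reads made up 40 of the 119536 reads of the 6 arms.

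The seed of miR-32-5p is that of the miR-25 and miR-92 family, and the sequences of its 3 relatives in the dataset show this.
miR-25-3p: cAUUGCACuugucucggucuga
miR-92a-3p: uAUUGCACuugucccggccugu
miR-92b-3p: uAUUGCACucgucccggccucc
Reads of miR-92a-3p ranged from 114706 to 176295 CPM and those of miR-25-3p from 12051 to 18759 CPM, whereas miR-32-5p had between 187 and 377 CPM. The family was not abundant throughout, with miR-92b-3p at 457 to 889 CPM. Outside the dataset, miR-363-3p, with the same seed, reached at most 4.39 CPM, and miR-367-3p was at 0 CPM. By mean CPM over the 12 libraries, miR-374a-5p ranked 44 of 143 (2625 CPM), miR-374b-5p 78 (749 CPM), miR-374a-3p 107 (366 CPM), miR-32-5p 120 (261 CPM), miR-32-3p 121 (252 CPM) and miR-374b-3p 134 (188 CPM). The neighbours miR-32-5p and miR-32-3p in this order changed places between conditions.

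Reads of miR-32-3p and miR-374b-3p were lower in all 8 libraries with 4SU than in all 4 Control libraries. miR-32-3p was at 257, 354, 382 and 391 CPM in Control replicates 1 to 4, and at 216, 245, 219 and 210 CPM in DMSO. In PlaB it was at 184, 209, 173 and 187 CPM. The groups did not overlap, and Control replicate 1 lay nearest to the DMSO values. The log2 fold change was -0.62 (SE 0.149) for DMSO over Control and -0.87 (SE 0.151) for PlaB over Control, 2 comparisons that share the Control libraries. With CPM rescaled by TMM factors, a scaling tried after the data had been seen, miR-32-3p in DMSO overlapped Control.

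miR-374b-3p was at 262, 250, 311 and 268 CPM in Control and at 143, 155, 152 and 176 CPM in DMSO. In PlaB it was at 103, 124, 171 and 139 CPM. DMSO and PlaB values overlapped each other and lay apart from Control. The log2 fold change was -0.78 (SE 0.156) for DMSO and -1.01 (SE 0.158) for PlaB, each over Control. Of the 143 miRNAs, 7 (4.9%) were lower without overlap in DMSO and 7 (4.9%) in PlaB. Without DMSO replicates 1 and 2 the log2 fold change of DMSO over Control was -0.65 for miR-32-3p and -0.69 for miR-374b-3p. Both arms were selected on the contrast with 4SU, so no test is given for these differences, and nothing is read from their count.

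The third 3p arm, miR-374a-3p, overlapped between conditions. It was at 286, 498, 519 and 368 CPM in Control, at 241, 495, 502 and 259 CPM in DMSO, and at 215, 374, 347 and 287 CPM in PlaB. Experiments 2 and 3 were high in each condition. Within each of the 4 experiments its value was lower in DMSO than in Control, by between 0.01 and 0.51 on the log2 scale, and lower in PlaB than in Control, by between 0.36 and 0.58. The fitted log2 fold change over Control was -0.13 (SE 0.285) for DMSO and -0.43 (SE 0.287) for PlaB. Among the 143 miRNAs this value was below 0 for 58 in DMSO and for 67 in PlaB.

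The 5p arms were higher in DMSO than in Control in 4 of 4 experiments for each hairpin, although their groups overlapped. miR-32-5p was at 195, 269, 230 and 187 CPM in Control, at 268, 334, 377 and 226 CPM in DMSO and at 206, 267, 249 and 318 CPM in PlaB. miR-374b-5p was at 330, 671, 846 and 626 CPM in Control, at 894, 1180, 1106 and 678 CPM in DMSO and at 443, 816, 891 and 504 CPM in PlaB. miR-374a-5p was at 1524, 2754, 3293 and 1836 CPM in Control, at 2176, 3773, 4083 and 2231 CPM in DMSO and at 1767, 3280, 2875 and 1904 CPM in PlaB. Experiments 2 and 3 gave the highest values of both miR-374 5p arms in each condition. The log2 fold change of DMSO over Control was 0.47 (SE 0.189) for miR-32-5p, 0.41 (SE 0.293) for miR-374a-5p and 0.66 (SE 0.294) for miR-374b-5p. In PlaB over Control the values were 0.25, 0.08 and 0.12, and 3 of 4 experiments were higher for each arm. The median over the 143 miRNAs was 0.05 for DMSO over Control and close to 0 for PlaB over Control. Values above 0 were found for 85 of the 143 in DMSO and for 76 in PlaB, each over Control. How many of the 143 were higher in 4 of 4 experiments was not counted.

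**Figure D1:**
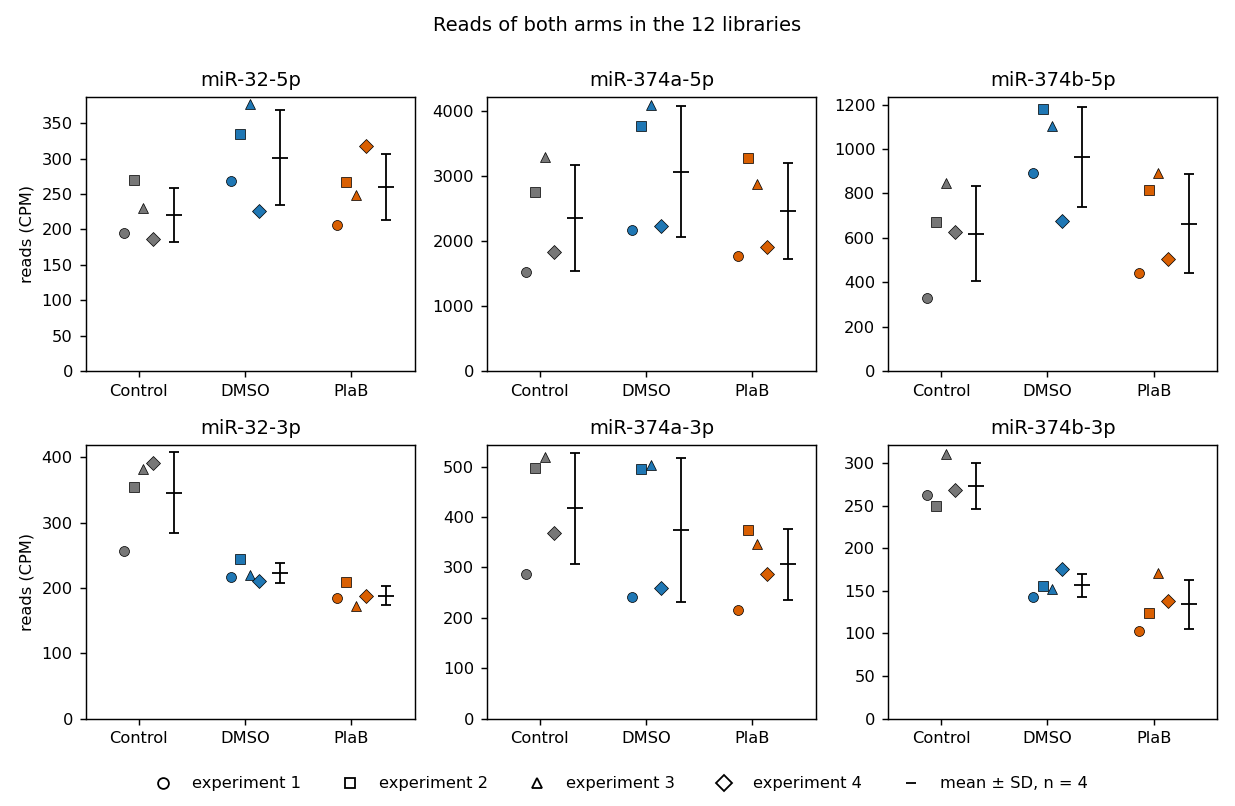
Reads in CPM (vertical axes from 0) of the 5p arms (upper panels) and 3p arms (lower panels) in the 4 libraries of each condition. Symbols mark the experiment and bars the mean ± SD (n = 4). miR-32-3p and miR-374b-3p lie lower in all DMSO and PlaB libraries than in Control, and the 5p arms overlap.

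Whether splicing inhibition altered the amount of these miRNAs was tested by comparing PlaB with DMSO. This contrast was not itself used to choose them. It does use libraries with 4SU whose reads were in view at the choice, so it is not independent of that choice. None of the 6 passed edgeR's quasi-likelihood test over the 143 miRNAs (Benjamini-Hochberg adjusted p = 0.921 for each), in which 1 miRNA (0.699%) was called lower and 0.0% higher. That fit leaves out the pairing of libraries by experiment. With the experiment added as a block, none of the 6 passed either. The smallest edgeR adjusted p was then 0.0725, for miR-374a-5p (log2 fold change -0.32) and miR-374b-5p (-0.59). Among the 143 miRNAs 93 had a log2 fold change below 0, and these included all 6 arms. Counted from the lowest, the arms ranked 2 (miR-374b-5p), 4 (miR-374a-5p), 8 (miR-374a-3p), 12 (miR-32-3p), 16 (miR-374b-3p) and 19 (miR-32-5p). The values of the 6 arms lay between -0.22 for miR-32-5p and -0.54 (SE 0.294) for miR-374b-5p, beside a median of -0.04 for the dataset. Before adjustment the smallest p of the 6 in this edgeR test was 0.0876, for miR-374b-5p. This arm was lower in PlaB in 4 of 4 experiments, as were miR-374a-5p and miR-32-3p. How many of the 143 miRNAs were lower in 4 of 4 experiments was not counted. The 4 PlaB libraries of miR-32-3p lay below the 4 DMSO libraries, which 4 of the 143 miRNAs (2.8%) did.

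**Figure D2:**
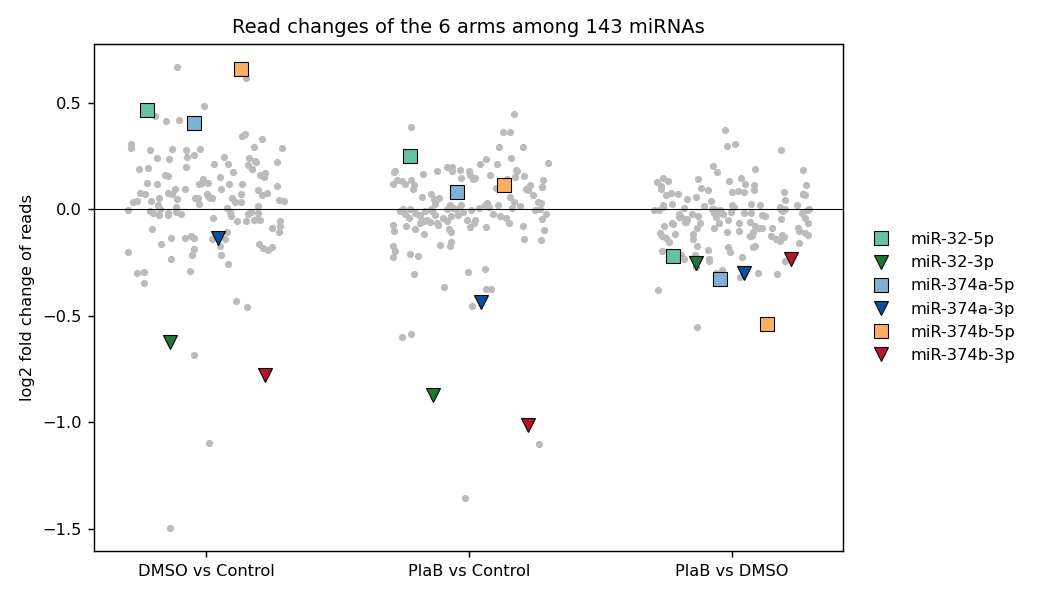
log2 fold changes of reads (vertical axis) for the 143 miRNAs in the 3 comparisons. Grey points are the other miRNAs, squares the 5p arms and triangles the 3p arms, with miR-374b-3p at -0.78 in DMSO and -1.01 in PlaB over Control. All 6 arms lie below 0 in PlaB over DMSO, where 93 of the 143 miRNAs, these included, do so.

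Because the arms of a hairpin come from 1 precursor and are counted in the same library, their ratio does not depend on library size. In Control, miR-32 had more 3p than 5p reads, with a 5p to 3p ratio of 0.762, 0.761, 0.603 and 0.478 in replicates 1 to 4. In DMSO the ratio was 1.24, 1.37, 1.72 and 1.08, and in PlaB 1.12, 1.28, 1.44 and 1.70. Thus the 3p arm had more reads than the 5p arm in 4 of 4 Control libraries and fewer in the 8 libraries with 4SU. As a share of miR-32 reads, the 3p arm made up 60.9% ± 5.22 of the Control total (SD, n = 4), compared with 43.0% ± 4.79 in DMSO and 42.3% ± 4.29 under PlaB.

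In DMSO over Control, the contrast used for the selection, miR-374b had the largest change in ratio of the 23 hairpins with both arms in the dataset. Its 5p to 3p ratio was 1.26, 2.69, 2.72 and 2.33 in Control, 6.24, 7.59, 7.27 and 3.86 in DMSO and 4.29, 6.60, 5.22 and 3.64 in PlaB. Control replicate 1 was lowest, and experiment 4 was the lowest within both conditions with 4SU. For miR-374a the ratio was 5.33, 5.54, 6.35 and 4.98 in Control, 9.03, 7.63, 8.13 and 8.61 in DMSO and 8.20, 8.76, 8.28 and 6.63 in PlaB. Here the 5p arm had more reads than the 3p arm in all 12 libraries, and the groups with and without 4SU did not overlap. Unlike the reads of miR-374a-3p alone, its ratio to the 5p arm therefore separated Control from the other libraries.

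The log2 change of the ratio in DMSO over Control was 1.06 (SE 0.194) for miR-32, 0.59 (SE 0.140) for miR-374a and 1.49 (SE 0.270) for miR-374b, beside a median of 0.14 over the 23 hairpins. Without DMSO replicates 1 and 2 these values were 1.09, 0.60 and 1.30. In PlaB over Control they were 1.10, 0.52 and 1.16. Without overlap, 7 of 23 hairpins (30.4%) were higher in DMSO and 6 (26.1%) in PlaB than in Control, the 3 described here among them. The others in DMSO, named after their values were seen, were miR-21 (1.28), miR-335 (0.82), miR-423 (0.34) and miR-30e (0.25). In the other direction, 2 of 23 hairpins (8.7%) were lower without overlap in DMSO, miR-148a (-1.02) and miR-130b (-0.44). These ratios contain the reads by which the arms were selected and are given as a description.

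PlaB and DMSO, both with 4SU, were compared by limma on the log2 ratios. The difference was 0.04 (SE 0.194, adjusted p = 0.873) for miR-32, -0.07 (SE 0.140, adjusted p = 0.86) for miR-374a and -0.33 (SE 0.270, adjusted p = 0.86) for miR-374b. Of the 23 hairpins 0.0% were called by limma in either direction, and none was below 0.05 before adjustment. The miR-374b ratio was lower in PlaB in 4 of 4 experiments, and an exact permutation test of its 4 against 4 values gave a two-sided p of 0.286.

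T>C conversion rates follow labelling of an arm during the 4 h with 4SU but are not the labelled share of its molecules. By the study's account, most miRNAs made in that time would carry no conversion. It also states that its method cannot directly compare synthesis rates between miRNAs, so the order of arms below is one of rates only. Rates are conversions divided by the covered T positions of the reads, and the intervals given cover counting error only, since no molecular identifiers were counted. In DMSO miR-32-3p had the highest mean rate of the 6 arms, 0.274% ± 0.208 (SD, n = 4), and miR-32-5p the lowest, 0.0306% ± 0.0274. miR-374a-5p was at 0.177% ± 0.0362, miR-374b-3p at 0.147% ± 0.1247, miR-374a-3p at 0.123% ± 0.0620 and miR-374b-5p at 0.0686% ± 0.0173. With these SDs, neighbours in the order from miR-32-3p to miR-374a-3p lay within their spread. The dataset medians were 0.0178% in Control, 0.187% in DMSO and 0.0718% in PlaB. Without overlap, the DMSO libraries lay above Control for miR-32-3p and both miR-374a arms, as they did for 101 of the 143 miRNAs (70.6%). Results of all these libraries were in view when the arms were chosen, so the tests of rates below are not independent of that choice.

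**Figure D3:**
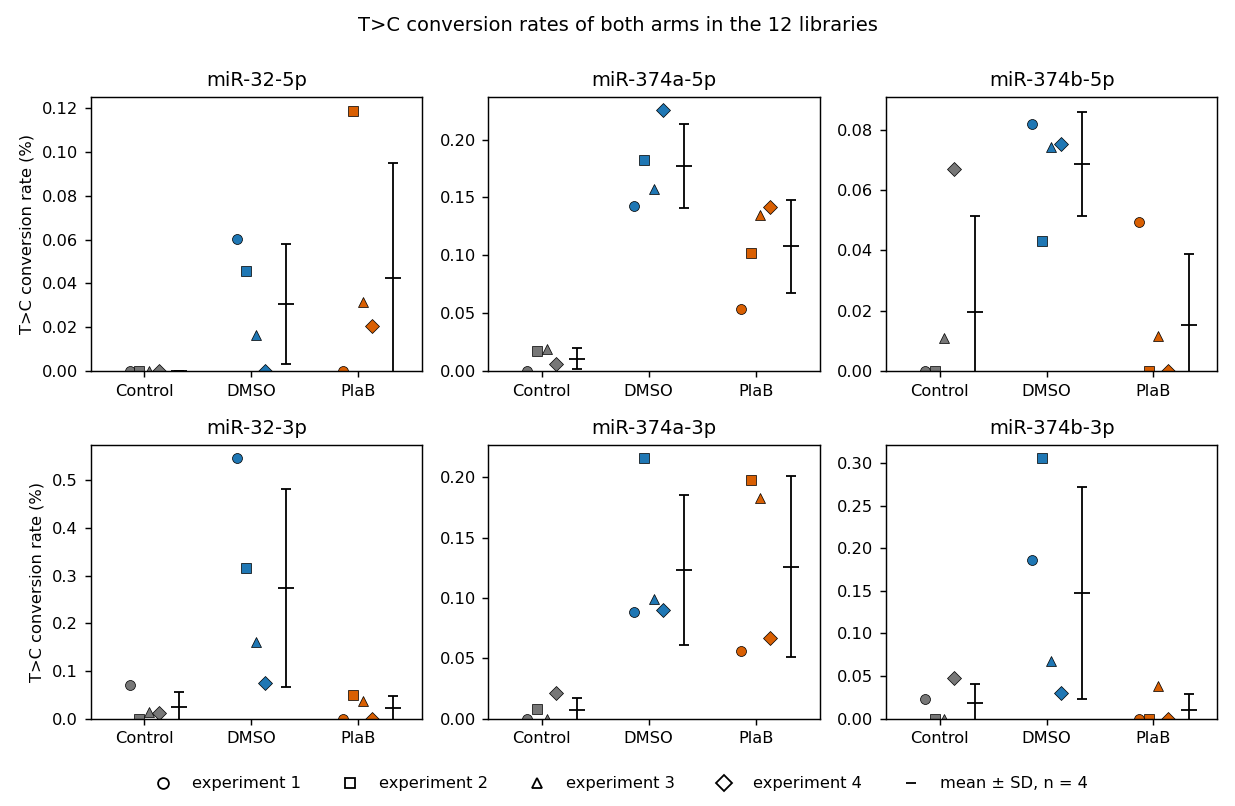
T>C conversion rate in percent (vertical axes from 0) of the 5p arms (upper panels) and 3p arms (lower panels) in the 4 libraries of each condition. Symbols mark the experiment and bars the mean ± SD (n = 4), which end at 0 where the SD exceeds the mean. miR-374a-5p and miR-374a-3p stay above Control in all 4 PlaB libraries, while miR-32-3p and miR-374b-3p lie near Control in PlaB.

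In DMSO the T>C rate of miR-32-3p was above that of miR-32-5p in each library. The miR-32-3p rate was 0.547%, 0.315%, 0.160% and 0.0737% in DMSO replicates 1 to 4. In Control it was 0.0705%, 0%, 0.0146% and 0.0109%, and in PlaB 0%, 0.0493%, 0.0370% and 0%. The T>C rate of miR-32-3p in DMSO lay above both other conditions, with replicate 4 only just above the highest Control library. Pooled over libraries, 80 conversions in 24612 covered T positions in DMSO stood against 5 in 28716 in Control and 3 in 13088 in PlaB. A total of 0 conversions in 14621 covered T positions of miR-32-5p was seen in Control, which allows a rate of up to 0.0205%. miR-32-5p had 10 in 26688 in DMSO and 7 in 14749 in PlaB. Of these, 9 conversions in DMSO came from replicates 1 and 2, and replicates 3 and 4 had 1 in 9655 (0.0104%), below the Control limit. In PlaB, 5 came from replicate 2, and the other 3 libraries had 2 in 10533 (0.0190%), also below it. The difference within the 4 DMSO libraries was 0.243 ± 0.181 percentage points (SD, n = 4). An exact two-sided sign-flip test of 4 libraries cannot reach 0.05, so this difference is given without a test.

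In PlaB compared with DMSO, the miR-32-3p rate fell by 3.51 on the log2 scale (SE 1.08, edgeR quasi-likelihood test, adjusted p = 0.00702), and it was lower in 4 of 4 experiments. Of the 143 miRNAs 69 (48.3%) were called lower and 0.0% higher, so a lower rate was common in the dataset. When DMSO replicates 1 and 2 were left out, miR-32-3p no longer passed (log2 fold change -2.27, edgeR adjusted p = 0.274). These replicates had 70 conversions (0.433%, 95% Wilson interval 0.343% to 0.547%), whereas replicates 3 and 4 had 10 (0.118%, 0.0643% to 0.218%). The part of the combined sequencing runs in this difference was not tested. Both of replicates 1 and 2 were above both of 3 and 4 in 30 of the 143 miRNAs (21.0%), and both below in 19 (13.3%). miR-32-5p did not pass (log2 fold change 0.39, SE 1.19, edgeR adjusted p = 0.826), with a pooled PlaB to DMSO ratio of 1.27 and a counting interval of 0.409 to 3.69. The difference between the rates of the miR-32 arms was smaller in PlaB than in DMSO in an exact permutation test (two-sided p = 0.0286, the smallest possible), which did not pass after adjustment over the 23 hairpins (adjusted p = 0.110).

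Both miR-374a arms were labelled above Control in PlaB. miR-374a-5p was at 0.143%, 0.182%, 0.157% and 0.225% in DMSO replicates 1 to 4 and at 0.0533%, 0.102%, 0.135% and 0.142% in PlaB. In Control its rate was at most 0.0192%. It rose in PlaB over Control by a log2 fold change of 3.08 (SE 0.473, edgeR adjusted p = 2e-07), with 4 of 4 experiments higher. miR-374a-3p was at 0.0882%, 0.216%, 0.0992% and 0.0897% in DMSO and at 0.0560%, 0.198%, 0.183% and 0.0670% in PlaB, and at most 0.0208% in Control. It also rose in PlaB over Control (log2 fold change 3.84, SE 0.966, edgeR adjusted p = 0.000656). In this comparison 77 of 143 miRNAs (53.8%) were called higher.

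Against DMSO, neither miR-374a arm passed the test. For miR-374a-3p the log2 fold change was 0.04 (SE 0.718, edgeR adjusted p = 0.987), from 33 conversions in PlaB and 63 in DMSO, a pooled ratio of 0.985 with a counting interval of 0.626 to 1.52. For miR-374a-5p it was -0.69 (SE 0.363, edgeR adjusted p = 0.116), from 135 conversions in PlaB and 401 in DMSO, a pooled ratio of 0.648 with an interval of 0.529 to 0.789. All 4 PlaB libraries of miR-374a-5p lay below all 4 DMSO libraries, which 46.2% of the dataset did. With only these 8 libraries in the fit, miR-374a-5p passed (edgeR adjusted p = 0.0392). The difference between its arms did not change detectably between PlaB and DMSO (exact permutation, two-sided p = 0.257). When the Control rate was subtracted from both, the PlaB to DMSO ratio of mean rates was 0.584 for miR-374a-5p and 1.02 for miR-374a-3p, beside a median of 0.318 over 118 miRNAs labelled in DMSO.

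The miR-374b arms were near background in PlaB. miR-374b-3p was at 0.186%, 0.306%, 0.0677% and 0.0301% in DMSO, and the only conversion in PlaB was in replicate 3 (0.0383%). In Control it was at 0.0234%, 0%, 0% and 0.0479%, so DMSO replicate 4 lay within the Control range. The rate fell by 3.47 on the log2 scale in PlaB compared with DMSO (SE 1.43, edgeR adjusted p = 0.0403), from 28 conversions in 16570 covered T positions to 1 in 9006. The pooled ratio was 0.0657, with a counting interval of 0.00161 to 0.397. This call was lost with the experiment as a block (edgeR adjusted p = 0.0927), in DESeq2 (adjusted p = 0.0563), without DMSO replicates 1 and 2 (log2 fold change -1.86, edgeR adjusted p = 0.538), and without DMSO replicate 1 or 2 or PlaB replicate 1, 2 or 4 singly (edgeR adjusted p between 0.0769 and 0.165). DMSO replicates 1 and 2 held 25 of the conversions and replicates 3 and 4 held 3.

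miR-374b-5p was at 0.0817%, 0.0432%, 0.0744% and 0.0751% in DMSO, at 0.0495%, 0%, 0.0117% and 0% in PlaB and at 0%, 0%, 0.0109% and 0.0670% in Control. Control replicate 4 was far above the other Control libraries and above DMSO replicate 2. The log2 fold change of PlaB over DMSO was -2.43 (SE 1.15, edgeR adjusted p = 0.0783), from 3 conversions in PlaB and 43 in DMSO. The pooled ratio was 0.163, with a counting interval of 0.0323 to 0.509. Without PlaB replicate 1 the log2 fold change was -3.71 (edgeR adjusted p = 0.0283). Over Control in PlaB, neither arm passed, with log2 fold changes of -0.84 (edgeR adjusted p = 0.603) for miR-374b-5p and -0.59 (adjusted p = 0.793) for miR-374b-3p. Nor did the miR-32 arms, at 4.18 (edgeR adjusted p = 0.061) for miR-32-5p, which had 0 conversions in Control, and 0.20 (adjusted p = 0.92) for miR-32-3p. Whether PlaB acted differently on the miR-374a and miR-374b arms was not tested.

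The number of T positions covered per read also differed for miR-374b-3p, which has 10. In Control it was 9.76, 9.80, 9.79 and 9.77, in DMSO 9.69, 9.64, 9.57 and 9.59 and in PlaB 9.59, 9.64, 9.59 and 9.54. The libraries with 4SU lay below Control without overlap. In DMSO, 19 of 143 miRNAs (13.3%) did so and in PlaB 16 (11.2%), and miR-374b-3p had the largest decrease in both, -0.159 and -0.189, beside medians of -0.00274 and -0.00111. The decrease in miR-32-3p was -0.0523 in DMSO, rank 6 of 143, and -0.0315 in PlaB, and its libraries overlapped. For miR-374a-3p the change was -0.0153 and -0.0167, and for each 5p arm it was at most 0.0119 in size. Between PlaB and DMSO the exact permutation test gave a two-sided p of 0.429 for miR-374b-3p.

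**Figure D4:**
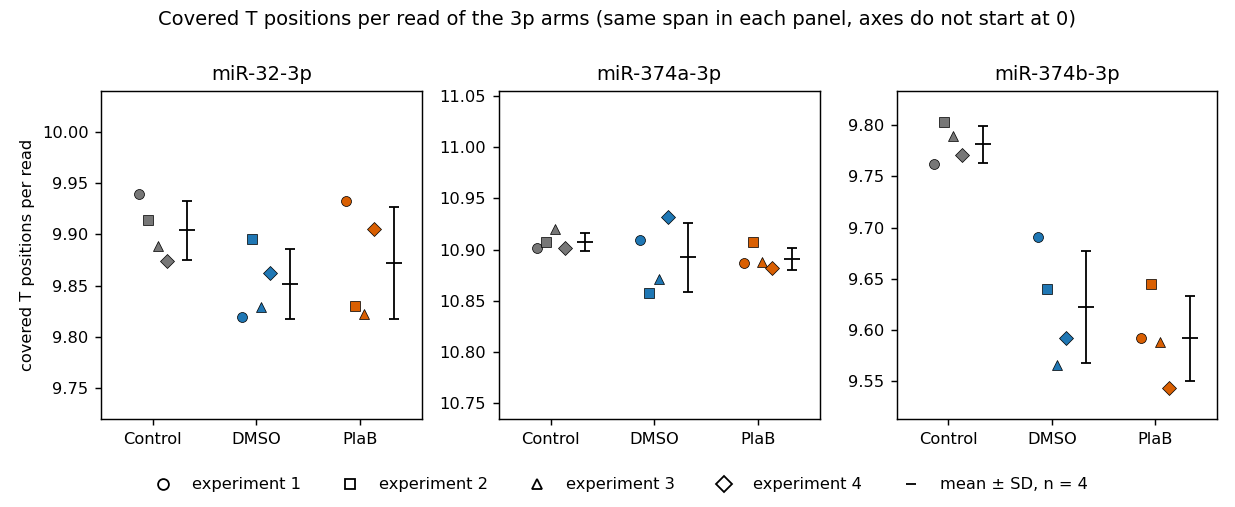
Covered T positions per read (vertical axes of equal span, not starting at 0) of the 3p arms in the 4 libraries of each condition. Symbols mark the experiment and bars the mean ± SD (n = 4). miR-374b-3p lies at 9.76 to 9.80 in Control and at 9.54 to 9.69 in the libraries with 4SU.

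Features shared by the 3p arms were set beside the rest of the dataset. Of 127 miRNAs with a RefSeq sequence, 13 end in UU, the 3 3p arms included. The other 10 had a median log2 fold change of reads in DMSO over Control of 0.09, and 0 of them were lower without overlap. Among 22 other miRNAs with 10 or more T positions the median was 0.08, and 1 was lower without overlap. By arm, 6 of 62 3p strands and 1 of 76 5p strands were lower without overlap, with medians of 0.003 and 0.07. These are descriptions of sets that include or adjoin the selected arms.

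By pattern over the 12 libraries, as the root mean square difference of centred log2 CPM, the miRNAs most like miR-374b-3p were miR-335-3p (0.222) and miR-32-3p (0.258). For miR-32-3p they were miR-335-3p (0.244) and miR-374b-3p (0.258). The mean of miR-335-3p was 199 CPM in Control, 146 CPM in DMSO and 132 CPM in PlaB. miR-374a-5p and miR-374b-5p were the most alike for each other (0.242), followed by miR-22-3p (0.252) for the former and miR-122-3p (0.290) for the latter. miR-32-5p was most like miR-19b-3p (0.199) and miR-221-3p (0.202), and miR-374a-3p most like miR-21-5p (0.253) and miR-19a-3p (0.255). Median differences from the remaining miRNAs were between 0.378 and 0.577. All of these points share library totals and experiments.

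Of 5 other miRNAs of the FTX locus, only miR-421 was in the dataset, at 243 to 345 CPM. It passed no test of PlaB over DMSO, with a log2 fold change of 0.02 in reads (edgeR adjusted p = 0.998) and, for T>C rates, no conversion in PlaB or Control. Its mean rate in DMSO was only 0.00478%, and DMSO overlapped Control, so the lack of conversions in PlaB does not show a fall. miR-374c, encoded on the strand opposite to miR-374b, had 0.523 to 7.88 CPM for its 5p arm and 0 for its 3p arm. How reads were assigned by strand is not given in the sources used here. However, miR-374c-3p and miR-374b-5p share the interval chrX:74218587-74218608 on opposite strands. miR-374c-3p was at 0 CPM in every library, whereas miR-374b-5p had 330 CPM in its lowest Control library and 1180 CPM in its highest DMSO library. Reads of that interval were therefore not counted for both strands. The miR-545 arms were at or below 2.51 CPM.

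Of 5 other miRNAs with the seed of miR-32-5p, 3 were in the dataset. In reads, 1 of the 3 fell in PlaB compared with DMSO, miR-92b-3p by 0.55 on the log2 scale (SE 0.102, edgeR adjusted p = 0.0144). It was the only miRNA called in that test, and no miRNA was called without DMSO replicates 1 and 2, with only the 8 libraries compared, with library totals alone, or in 10 of 12 fits that left out a single library (any but Control replicate 1 or DMSO replicate 2). In T>C rates 2 of 3 fell, where 48.3% of the dataset did, miR-92a-3p by 1.48 (SE 0.150, edgeR adjusted p = 1.76e-11) and miR-92b-3p by 1.49 (SE 0.269, adjusted p = 1.32e-05). miR-25-3p did not pass (-0.19, SE 0.165, edgeR adjusted p = 0.344). All 3 rose above Control in PlaB, where 53.8% of the dataset did, by 0.86, 1.48 and 6.24 for miR-25-3p, miR-92a-3p and miR-92b-3p (edgeR adjusted p at most 1.65e-05).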

How the data were processed

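Small RNA libraries of 12 Huh7 samples (4 per condition) were analysed, with conditions and replicate numbers taken from the labels. The authors trimmed reads (Trim Galore, named in the submitters' processing notes), aligned them to GRCh38 and took counts at miRBase mature miRNA coordinates through SLAM-DUNK (nf-core SLAMseq workflow). SNPs were masked, and mapping quality was not filtered. The deposited tables hold counts (reads, T>C conversions, covered T positions, multi-mapping reads), CPM and a conversion rate as a fraction. CPM were checked to equal reads over their total, and rates conversions over covered T positions.

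The 6 arms, the lists and the tests were chosen with earlier results of these data known. The lists were the other miRNAs of the FTX locus, those with the seed of miR-32-5p, and cell type markers. For each arm the 2 miRNAs with the most similar pattern are named, and any other was chosen after its values were seen. In R 4.3.3, reads were fitted with edgeR 4.0.16 (TMM factors, 12 libraries, quasi-likelihood test) and conversions likewise with log covered T positions as offset. Both were adjusted by Benjamini-Hochberg over the Initial miRNA Dataset of 143, and fits were tested on simulated data. Log2 arm ratios (0.5 reads added to each arm in the fits) were fitted with limma 3.58.1 over 23 hairpins, and printed ratios are of plain reads. Single values were tested by exact permutation (smallest two-sided p 0.0286 for 4 against 4). DESeq2 1.42.0 was an alternative. Rates with 0 conversions were limited by 3 conversions over the covered T positions, and Wilson intervals are at 95%. The replicate numbers stand for independent experiments shared by the 3 conditions. Deviations from the group mean correlated by at least 0.274 between libraries of the same number (median 0.559 to 0.575) and by -0.213 to -0.173 in the median between different numbers. Sequences come from RefSeq and loci from GENCODE.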

Additional observations from a re-analysis of the deposited data

Results flagged for a closer look

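In 3 of 62 groups of 4 libraries checked for the 6 arms, 1 library stood apart from the other 3 by Dixon's criterion. The criterion's rate of 1 in 20 by chance assumes continuous, normal values. Rates from few conversions are not such values, and any library with a conversion beside others at 0% is flagged, so no comparison with chance is made. The T>C rate of miR-374a-3p in DMSO replicate 2 was 0.216%, whereas the other DMSO libraries were at 0.0882% to 0.0992%. The rate of miR-374b-5p in Control replicate 4 was 0.0670%, from 6 conversions, whereas the others were at 0% to 0.0109%. The rate of miR-374b-3p in PlaB replicate 3 was 0.0383%, from 1 conversion, and the others were at 0%.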

How the results depend on the processing

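The counts of calls over the 143 miRNAs or 23 hairpins moved as follows. For reads in PlaB compared with DMSO, 1 miRNA was called, against 0 without DMSO replicates 1 and 2, 0 with only the 8 libraries compared, 0 with library totals alone and 2 of 533 miRNAs passing filterByExpr, and 0 to 1 when single libraries were left out. For T>C rates in the same comparison 69 were called, against 44 without DMSO replicates 1 and 2. Of the 6 arms, 2 had reads lower without overlap in DMSO than in Control, against 1 with TMM-scaled CPM (added after seeing the data), and 3 had higher T>C rates, against 3 to 5 with single libraries left out. The 5p to 3p ratio in PlaB over DMSO had 0 calls, against 1 of 57 hairpins with both arms at 20 or more reads. The 3p arm had the higher DMSO rate throughout in 1 hairpin, or 1 to 2 with a library left out. The replicate block, which follows the pairing of experiments, changed no call of the 6 arms other than miR-374b-3p T>C in PlaB compared with DMSO (log2 fold change -3.25, adjusted p = 0.0927). Directions turned, in results that passed no test, when single libraries were left out. In T>C rates PlaB over DMSO this gave ranges of -0.80 to 0.83 for miR-32-5p and -0.27 to 0.48 for miR-374a-3p. In PlaB over Control they were -0.67 to 1.25 for miR-32-3p, -2.12 to 1.18 for miR-374b-5p and -2.79 to 0.52 for miR-374b-3p. Arm ratios in PlaB over DMSO ranged from -0.062 to 0.164 for miR-32 and from -0.121 to 0.013 for miR-374a, and reads in PlaB over Control from -0.10 to 0.28 for miR-374a-5p and from -0.07 to 0.30 for miR-374b-5p. The cause was not tested. Few conversions limit the rates: the PlaB libraries held 1 to 7 for 4 of the 6 arms.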
